A study of Macaca mulatta with 24 samples.

Results

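Collagen chains are the subunits of the triple-helical proteins that make up most of the fibrous matrix of a tissue. They were taken as every row of the count table whose symbol has the form COL, a number, A and a number, which gave 42 genes of the 32386 rows. Of these, 41 were found through a gene name table and COL7A1 through the study's supplementary gene lists. COL10A1, COL24A1 and COL6A4 had no row by symbol. The 42 genes comprised 10 fibrillar chains, 6 type IV chains, 5 type VI chains, 2 type VIII chains, 10 chains of the fibril-associated group (FACIT), 2 multiplexins, 4 transmembrane chains, 1 anchoring fibril chain and 2 chains left unclassed, COL26A1 and COL28A1.

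Every collagen molecule is a helix of chains wound around each other, so chains of one molecule are usually made together. Fibrillar collagens such as types I, III and V form the cables of interstitial connective tissue, whereas type IV collagen forms the sheet-like network of the basement membrane that surrounds each adipocyte and each blood vessel. Type VI collagen forms beaded filaments around adipocytes and is abundant in adipose tissue, and FACIT collagens decorate the fibril surface.

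The RNA was from omental white adipose tissue biopsies of 24 female rhesus macaques in 4 groups of 6 animals, labelled as 4 years of age and treated for 3 years, although the study's methods give an older age at biopsy. The controls (*C*) carried cholesterol implants and ate monkey chow, the *T* animals carried testosterone implants and ate chow, the *WSD* animals carried cholesterol implants and ate a high-fat Western-style diet, and the *T* + *WSD* animals had testosterone implants and that diet. All 24 animals therefore carried an implant, and the study's methods describe them as chosen to represent their groups. They were picked to reflect earlier group findings, given there as hyperinsulinemia and greater fat mass, so they were not a random draw. Total counts per library ran from 6899185 to 28270776.

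Some libraries stood apart. In 8 libraries, 2 in each group, the unnamed gene ENSMMUG00000038258 took over 5% of the counts, between 9.92% and 54.7%, against at most 2.51% in the other 16. The tissue label was checked against 9 adipocyte markers, whose summed level was between 6668 and 18392 CPM (counts per 1000000 of the library, scaled with TMM factors) in 23 libraries, and 1568 CPM in *C* replicate 1. That library also had the highest summed level of 11 markers of mesothelium, the cell layer that covers the omentum, at 40068 CPM. Over the groups the mesothelial sum ran from 2967 to 40068 CPM in *C* and from 286.1 to 3285 CPM in *T* + *WSD*, with 2990 to 18075 CPM for *T* and 820.1 to 6369 CPM for *WSD*. In *T* + *WSD* against *C*, 9 of the 11 markers were called lower, beside 5.29% of all tested genes. The sum of 12 endothelial markers ran from 1097 to 1846 CPM in *C* and from 2090 to 3216 CPM in *T* + *WSD*, and 7 of the 12 were called higher. No mesothelial or endothelial marker was at 0 in a whole group. In bulk tissue, fewer cells of a type and less RNA per cell cannot be told apart.

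Collagen counts made up between 1.27% and 3.91% of the counts outside ENSMMUG00000038258. The mean share was 2.47% ± 1.06 (SD, n = 6) in *C* and 2.25% ± 0.447 in *T* + *WSD*, with 2.48% ± 0.671 for *T* and 2.34% ± 0.748 for *WSD*, so that the groups overlapped throughout. Within this total the make-up differed. Type IV chains took 5.96, 9.84 and 13.9% of collagen counts in *C* and 15.9, 20.9 and 30.8% in *T* + *WSD* (lowest, median and highest animal), and the 2 groups did not overlap. The lowest control was *C* replicate 1, and without it the lowest was 9.47%. The type IV share was 7.87, 13.32 and 18.03% for *T* and 9.88, 15.72 and 21.23% for *WSD*. Both single treatments thus overlapped *C* as well as *T* + *WSD*, with medians between theirs. Fibrillar chains took 54.5, 64.1 and 70.1% in *C* and 39.98, 55.6 and 62.2% in *T* + *WSD*, with overlapping groups. These are shares of reads, which also depend on transcript length.

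Tests were edgeR quasi-likelihood F-tests on 1 model of all 24 animals, and a gene is called here where its p, adjusted over the 15207 genes tested, was under 0.05 and its fold change over 1.5. Of the 42 collagens, 38 passed the filter on low counts. COL2A1, COL9A3, COL19A1 and COL23A1 did not, and their highest level in any animal was 0.565 CPM. In *T* + *WSD* against *C*, 7 of the 38 were called (18.4%), beside 10% of all tested genes. COL7A1 and COL25A1 rose, and 4.72% of all genes were called higher. COL4A5, COL6A5, COL6A6, COL8A1 and COL8A2 fell, and 5.29% of all genes were called lower. The median log2 fold change of the 38 was -0.07, against -0.04 over all tested genes. Another 8 collagens had an unadjusted p under 0.05 without being called, which makes 15 of 38 (39.5%) beside 32.1% of all tested genes.

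**Figure D1:**
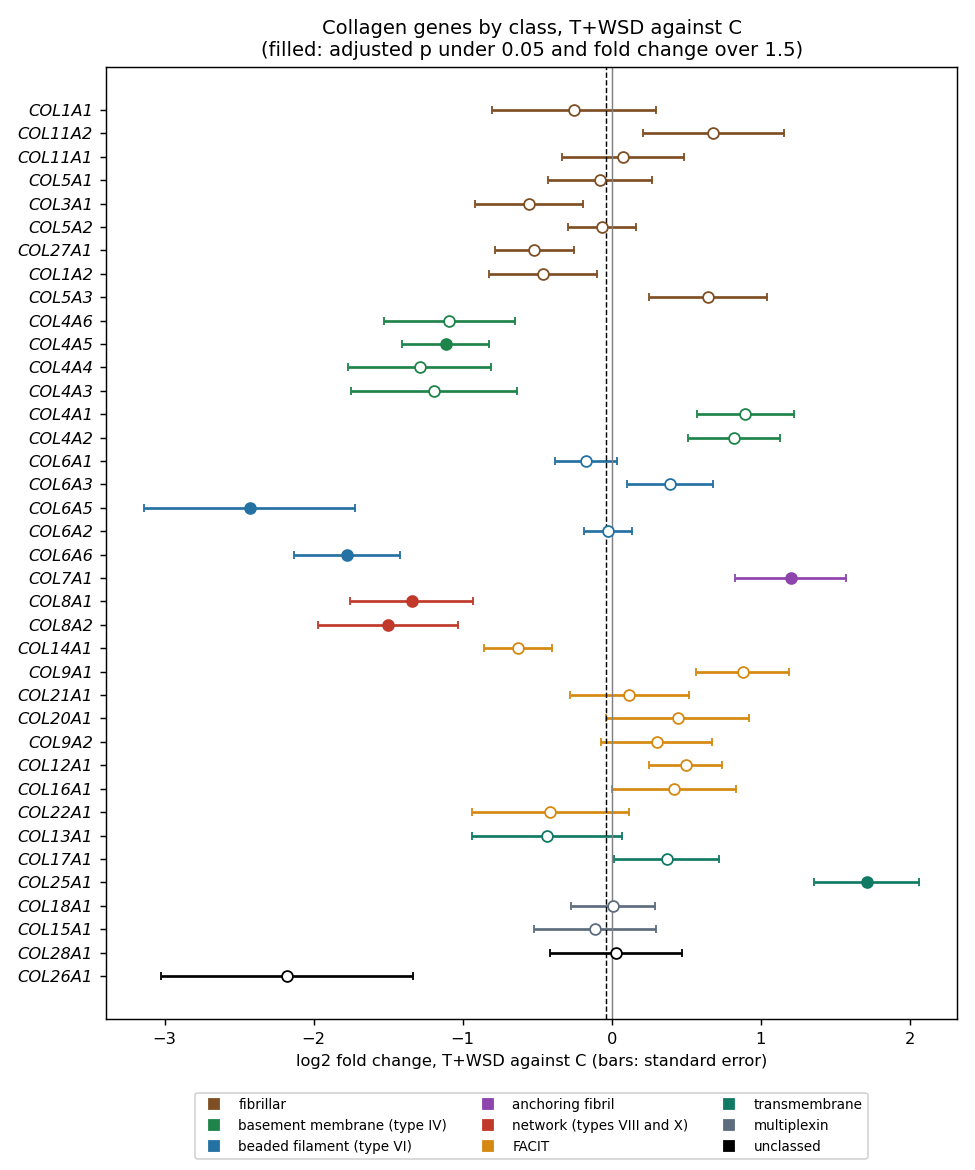
Log2 fold change of each of the 38 tested collagen genes in *T* + *WSD* against *C* (x axis, log2 units, with bars of 1 standard error), ordered and coloured by class; filled points were called, and the dashed line is the median of all tested genes at -0.04. No fibrillar chain is filled, COL4A1 and COL4A2 lie to its right while the other 4 type IV chains lie to its left, and COL6A5, COL6A6, COL8A1 and COL8A2 lie furthest left among the called genes.

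No fibrillar chain passed the test. Of the 9 tested, 0 were called in *T* + *WSD* against *C* by edgeR or by DESeq2, beside 10% and 10.9% of all genes. An unadjusted p under 0.05 was seen for 0 of the 9, beside 32.1% of all tested genes, and their median log2 fold change was -0.08. Fibrillar chains also varied together within groups, with r = 0.941 for COL1A1 with COL1A2 and 0.944 for COL3A1 with COL5A2. The 9 are therefore not separate results. COL1A1 and COL1A2, the 2 chains of type I collagen, had levels of 438, 1060.1 and 3941 CPM and 2162, 3011 and 7191 CPM in *C* (lowest, median and highest animal). In *T* + *WSD* the levels were 375, 1465 and 1664 CPM and 1344, 3011 and 3917 CPM. The ranges overlapped for both, with log2 fold change of -0.26, SE 0.55, adjusted p = 0.798 for COL1A1 and log2 fold change of -0.46, SE 0.36, adjusted p = 0.408 for COL1A2. COL3A1, the single chain of type III collagen, ran at 3065, 7883 and 10649 CPM in *C* and 2421, 5249 and 7859.9 CPM in *T* + *WSD*, again overlapping (log2 fold change of -0.56, SE 0.36, adjusted p = 0.303). COL5A1 and COL5A2, chains of the type V collagen that starts fibrils, had log2 fold changes of -0.08 and -0.07. The remaining members ran from -0.52 for COL27A1 to 0.68 for COL11A2, a chain known best from cartilage. A p above the threshold does not show that these levels were equal, since the standard errors for COL1A1 to COL3A1 were between 0.36 and 0.55.

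**Figure D2:**
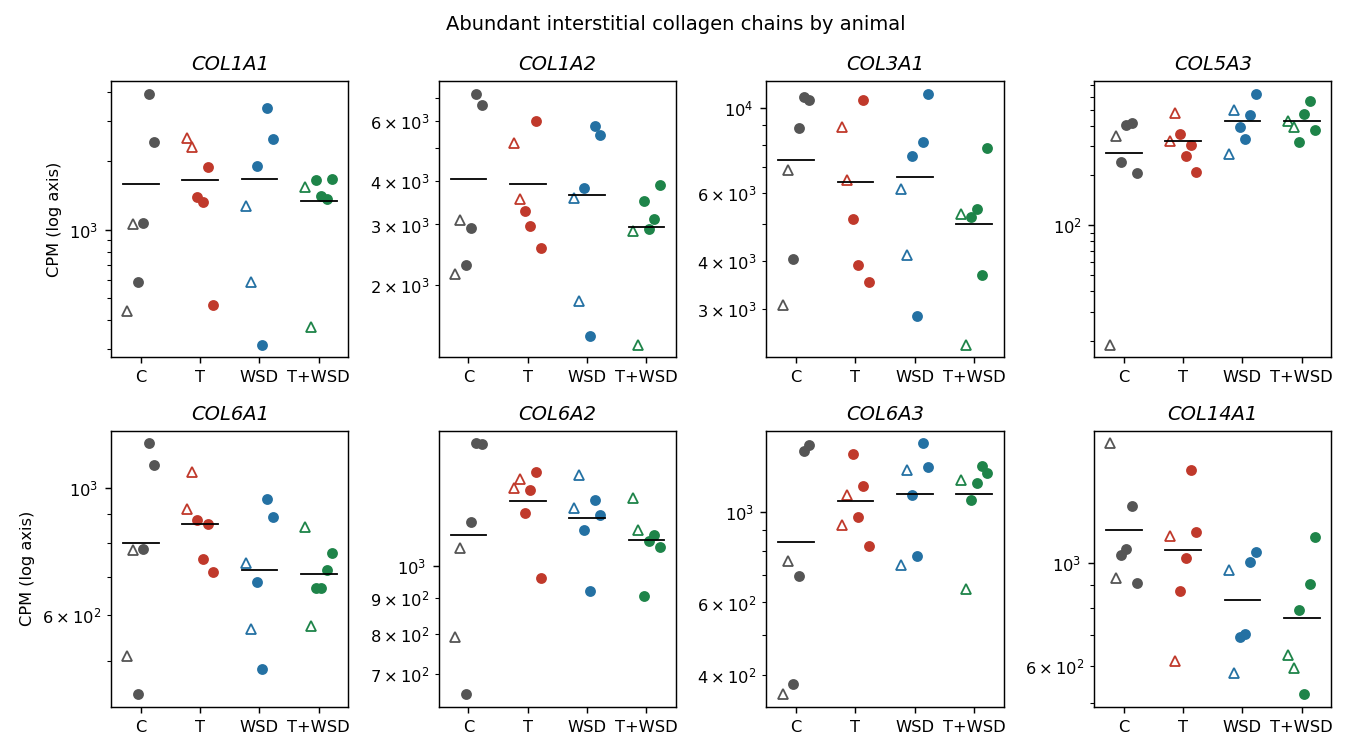
Level of 8 abundant interstitial collagen genes in each animal (y axis, CPM on a log scale; x axis, the 4 groups), with the group mean as a black line and open triangles for the 8 libraries with over 5% of counts on ENSMMUG00000038258. The groups overlap in every panel, and COL1A1 of *T* + *WSD* replicate 8 sits at 375 CPM, below the other 5 animals of its group.

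Type IV chains had changes of opposite sign. Adipocytes and vessels mostly carry the network of COL4A1 and COL4A2, while COL4A3, COL4A4, COL4A5 and COL4A6 form the more restricted networks known from kidney and some epithelia. COL4A1 had 279.7, 1497 and 1980.3 CPM in *C* and 2004, 2328 and 2760.02 CPM in *T* + *WSD*, with 1073, 1375 and 2481 CPM for *T* and 1243, 1698 and 2928 CPM for *WSD*. All 6 *T* + *WSD* animals were above every control, as they were for 3.49% of all tested genes. The change was not called (log2 fold change of 0.90, SE 0.33, adjusted p = 0.0611). Its partner COL4A2 had 232, 1085 and 1398 CPM in *C* and 1331, 1634 and 1856 CPM in *T* + *WSD*, with slightly overlapping groups, and was not called either (log2 fold change of 0.82, SE 0.31, adjusted p = 0.0695).

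COL4A5 fell. Its levels were 43.3, 60.1 and 122 CPM in *C* and 20.4, 30.2 and 42.5 CPM in *T* + *WSD*, beside 21.7, 50.3 and 83.5 CPM for *T* and 19.9, 32.8 and 52.97 CPM for *WSD* (log2 fold change of -1.11, SE 0.29, adjusted p = 0.0145). All 6 *T* + *WSD* animals were below every control, as for 4.12% of all tested genes, and the *T* animals overlapped both groups. The highest control was *C* replicate 1, the library with the high mesothelial sum, and without it the log2 fold change was -0.84 with an adjusted p of 0.0534. COL4A6 had 3.78, 6.77 and 21.3 CPM in *C* and 2.31, 4.01 and 6.57 CPM in *T* + *WSD*, with *C* replicate 1 again the highest (log2 fold change of -1.09, SE 0.44, adjusted p = 0.0866). COL4A3 and COL4A4 had low levels, 1.81, 6.28 and 7.55 CPM and 4.60, 7.68 and 12.03 CPM in *C*, and their *T* + *WSD* animals ran at 0.283, 2.08 and 5.76 CPM and 0.848, 2.18 and 5.98 CPM. Neither was called (log2 fold change of -1.19, SE 0.56, adjusted p = 0.141 and log2 fold change of -1.29, SE 0.48, adjusted p = 0.0667), and in both the groups overlapped. The 6 type IV chains all had an unadjusted p under 0.05, beside 32.1% of all tested genes. Their log2 fold changes were above 0 for 2 of them and below 0 for 4, and their median of -1.10 describes neither direction. Within groups, partner chains varied together, so these are not 6 separate results. The correlation was r = 0.977 for COL4A1 with COL4A2, 0.823 for COL4A3 with COL4A4 and 0.861 for COL4A5 with COL4A6.

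**Figure D3:**
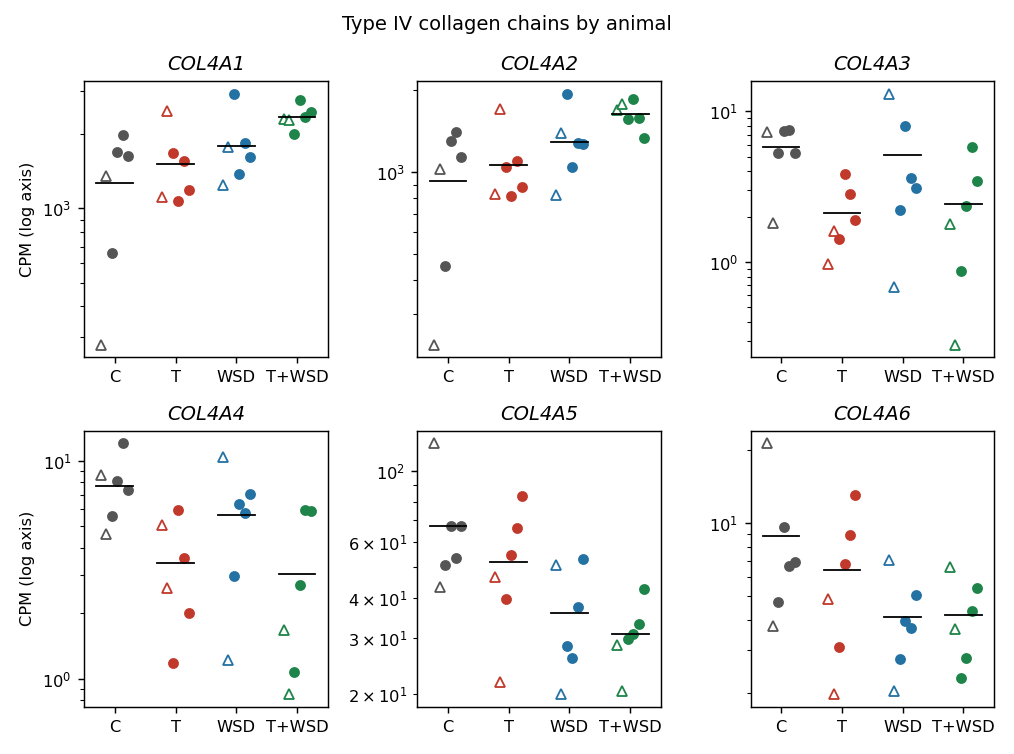
Level of the 6 type IV collagen genes in each animal (y axis, CPM on a log scale; x axis, the 4 groups), with the group mean as a black line and open triangles for the 8 libraries with over 5% of counts on ENSMMUG00000038258. COL4A1 and COL4A2 have their highest group means in *T* + *WSD*, COL4A5 of all 6 *T* + *WSD* animals lies below the lowest control at 43.3 CPM, and *C* replicate 1 is the lowest control for COL4A1 and the highest for COL4A5 and COL4A6.

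Ratios of counts within a library set the type IV chains side by side. The log2 ratio of COL4A1 to COL4A5 ran from 1.20, in *C* replicate 1, to 5.22 in *C*, against 3.84 to 6.83 for *T*, 4.62 to 6.69 for *WSD* and 5.86 to 6.81 for *T* + *WSD*, where all 6 animals were above every control. The log2 ratio of COL4A1 to COL3A1 ran from -3.45, again in *C* replicate 1, to -2.34 in *C* and from -1.67 to -0.09 in *T* + *WSD*, again without overlap. It ran from -3.00 to -1.39 for *T* and from -2.75 to -1.06 for *WSD*. There 4 *T* animals and 5 *WSD* animals were also above every control. The log2 ratio of COL4A1 to COL1A2 did overlap, from -2.95 to -0.78 in *C* and from -0.81 to 0.76 in *T* + *WSD*. In that ratio 5 of the 6 *T* + *WSD* animals were above every control. In contrast, the log2 ratio of COL4A1 to its partner COL4A2 had group means between 0.44 and 0.53. The ratio of COL4A5 to COL4A6 likewise had group means between 2.94 and 3.16. Since the ratios were formed from genes already seen to differ, they are descriptions.

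Type VI collagen split between its common and its rarer chains. COL6A1, COL6A2 and COL6A3 form the usual molecule, and COL6A5 and COL6A6 can take the place of COL6A3. COL6A1 had 437, 780.4 and 1196 CPM in *C* and 574, 694 and 853 CPM in *T* + *WSD*, and its log2 fold change was -0.18. COL6A2 and COL6A3 had log2 fold changes of -0.02 and 0.39, and none of the 3 was called. COL6A6 had 103, 182 and 457 CPM in *C* and 34.8, 60.9 and 95.5 CPM in *T* + *WSD*, beside 129.6, 149 and 254 CPM for *T* and 56.8, 136 and 202 CPM for *WSD*. The 6 *T* + *WSD* animals were below every *C* animal and below every *T* animal, while *WSD* reached into their range. Of all tested genes, 4.12% lay below every control in this way, and the share against *T* is not given here. COL6A6 fell against *C* (log2 fold change of -1.78, SE 0.35, adjusted p = 0.00399), and it remained called when each of the 24 libraries in turn was left out. COL6A5 had 6.41, 30.5 and 107 CPM in *C* and 2.75, 5.64 and 15.3 CPM in *T* + *WSD*, with overlapping groups (log2 fold change of -2.43, SE 0.71, adjusted p = 0.0223). Without *C* replicate 1, at 107 CPM the highest, its log2 fold change was -1.82 and its adjusted p 0.0856.

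Both type VIII chains fell. Type VIII is a short-chain collagen that forms hexagonal networks and is known from vessel walls and from the membrane beneath the corneal endothelium. COL8A1 had 43.5, 49.6 and 133 CPM in *C* and 11.02, 25.5 and 46.8 CPM in *T* + *WSD*, with overlapping groups (log2 fold change of -1.34, SE 0.41, adjusted p = 0.028). COL8A2 had 19.2, 30.4 and 61.01 CPM in *C* and 2.83, 12.8 and 16.6 CPM in *T* + *WSD* (log2 fold change of -1.50, SE 0.47, adjusted p = 0.0314). Its 6 *T* + *WSD* animals were below every control, as for 4.12% of all tested genes. For both genes the *T* and *WSD* animals overlapped both of these groups. Without *C* replicate 1 the adjusted p was 0.108 for COL8A1, at a log2 fold change of -0.99, and 0.0678 for COL8A2, at -1.43.

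Among the remaining classes, COL25A1 and COL7A1 rose. COL25A1, a transmembrane collagen known from neurons and from muscle innervation, had 1.63, 2.49 and 8.37 CPM in *C* and 7.09, 9.69 and 17.8 CPM in *T* + *WSD*, beside 2.69, 5.44 and 7.27 CPM for *T* and 2.82, 4.97 and 5.74 CPM for *WSD* (log2 fold change of 1.71, SE 0.35, adjusted p = 0.00462). Every *T* + *WSD* animal was above every *WSD* animal, and 1 control, *C* replicate 2 at 8.37 CPM, reached into their range. The share of all tested genes that separated from *WSD* in this way is not given here. COL25A1 was called whichever of the 24 libraries was left out. COL7A1, the chain of the anchoring fibrils beneath epithelia, had 1.12, 3.14 and 5.88 CPM in *C* and 5.09, 7.43 and 10.3 CPM in *T* + *WSD*, with overlapping groups (log2 fold change of 1.20, SE 0.37, adjusted p = 0.0306). Both are low genes, with at most 242 counts in any *T* + *WSD* library. Of 6 Schwann cell markers tested, edgeR called 0 and DESeq2 called 2 higher, and 2 had an unadjusted p under 0.05. The summed level of 7 such markers ran from 25.2 to 69.9 CPM in *C* and from 30.6 to 148 CPM in *T* + *WSD*, and their part in the COL25A1 level was not tested.

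Of the 8 FACIT members tested, 0 were called against *C* by edgeR and 2 had an unadjusted p under 0.05, COL9A1 and COL14A1, which DESeq2 called, and the class median was 0.36. COL9A1, a chain of the type IX collagen of cartilage, had 0.657, 0.772 and 1.27 CPM in *C* and 0.848, 1.79 and 1.996 CPM in *T* + *WSD*, beside 0.399, 0.546 and 0.972 CPM for *T* and 0.361, 0.697 and 0.986 CPM for *WSD*. It narrowly missed the threshold against *C* (log2 fold change of 0.88, SE 0.31, adjusted p = 0.0532), and its counts were between 3 and 48 per library. COL14A1, which binds fibrils in soft connective tissue, had 909, 1056 and 1810.3 CPM in *C* and 523, 714 and 1138 CPM in *T* + *WSD* (log2 fold change of -0.63, SE 0.23, adjusted p = 0.0596). COL26A1, unclassed, had 1.20, 10.4 and 22.2 CPM in *C* and between 0.283 and 3.01 CPM in *T* + *WSD* (log2 fold change of -2.18, SE 0.85, adjusted p = 0.0781), with a wide spread in all groups but the last. The multiplexins COL15A1 and COL18A1, basement membrane zone collagens whose ends can be cut off as fragments that act on vessels, had log2 fold changes of -0.11 and 0.01.

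**Figure D4:**
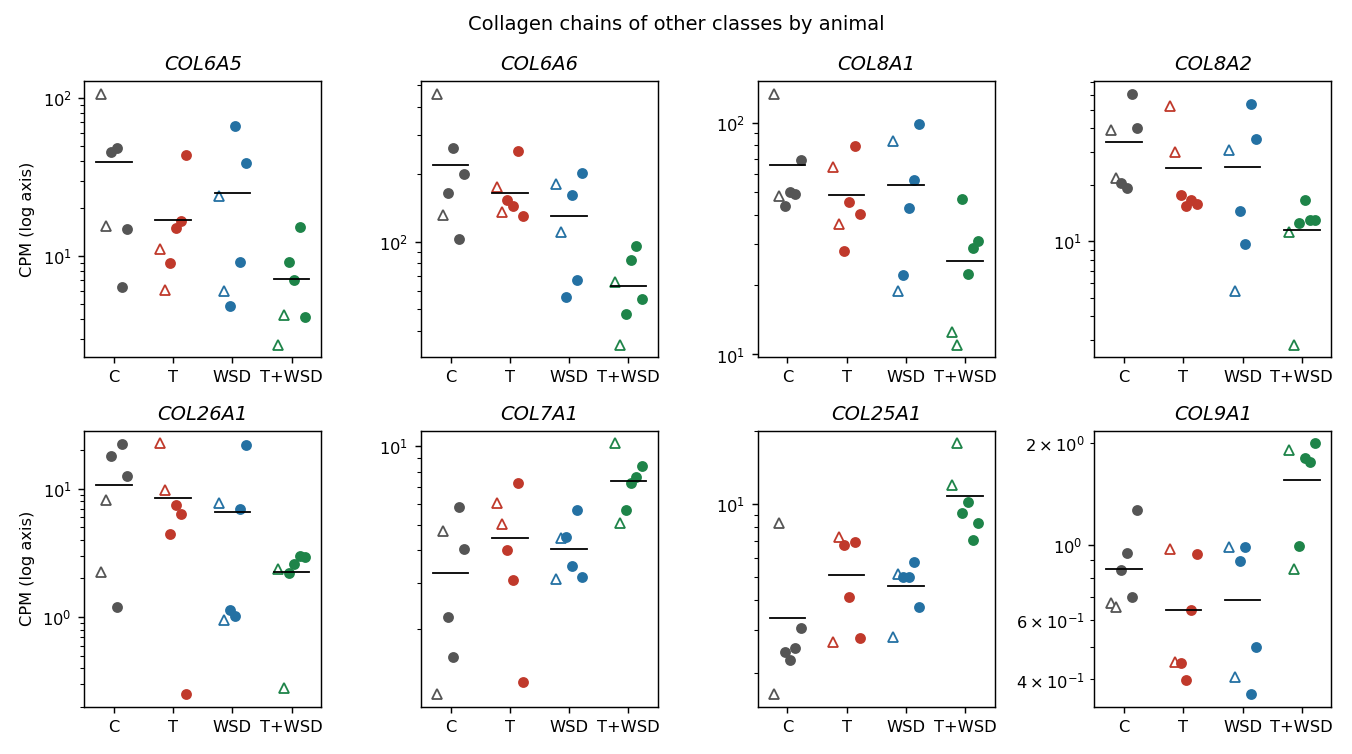
Level of 8 collagen genes of types VI, VIII, XXVI, VII, XXV and IX in each animal (y axis, CPM on a log scale; x axis, the 4 groups), with the group mean as a black line and open triangles for the 8 libraries with over 5% of counts on ENSMMUG00000038258. COL6A6 and COL8A2 of all 6 *T* + *WSD* animals lie below every control, and COL25A1 has its highest group mean in *T* + *WSD*, with animals between 7.09 and 17.8 CPM.

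The mesothelial and endothelial sums differed between the same groups as these genes, and the calls were recomputed with the mean of the 11 mesothelial markers as a covariate. In that fit 0 of the 38 collagens were called, as were 0 of all 15207 genes. The log2 fold changes were -0.20 for COL4A5, -0.40 for COL6A6 and -0.16 for COL8A2, and they were 0.19 for COL6A5 and 0.27 for COL8A1, above 0. Those of the genes that had risen were 0.78 for COL25A1 and 0.80 for COL7A1, those of COL4A1 and COL4A2 were 0.33 and 0.27, and COL9A1 had 0.97. The adjusted p was 0.999 for each of the 7 genes called before. Because the covariate differs between the groups, the group and the mesothelial level cannot be told apart in this design. The part of the endothelial level was not tested.

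The separate treatments were compared with the same 6 controls, so the comparisons below share them. In *WSD* against *C*, 0 of the 38 collagens were called, beside 0% of all tested genes, and 4 had an unadjusted p under 0.05, all lower, beside 18.5% of all genes. DESeq2 called 1.58% of all genes and none of the collagens in this comparison. The 3 smallest p belonged to COL4A5 (log2 fold change of -0.91, SE 0.29, adjusted p = 0.144), COL4A6 (-1.12) and COL6A6 (-0.76). In *T* against *C*, 0 of 38 were called by edgeR and 0 by DESeq2, beside 0% of all genes in edgeR, and 4 had an unadjusted p under 0.05, beside 8.63% of all genes. These were COL9A2 and COL20A1 with log2 fold changes of 1.14 and 1.24, and COL4A3 and COL4A4 with -1.45 and -1.19. The adjusted p of all 4 was at least 0.519.

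**Figure D5:**
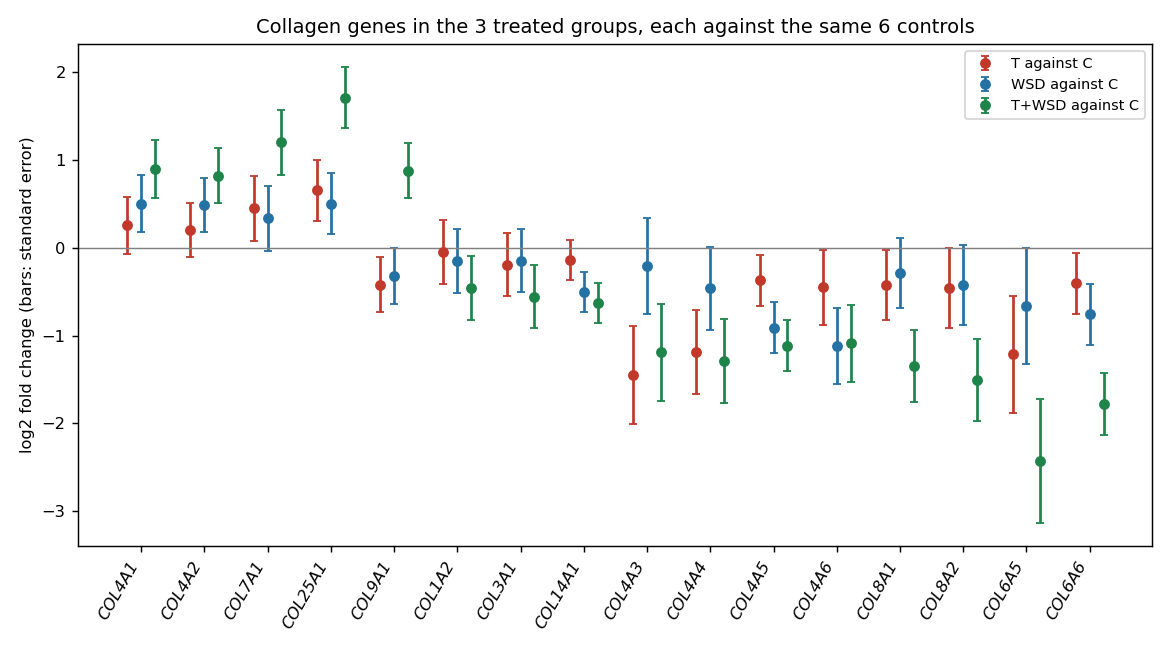
Log2 fold change of 16 collagen genes (y axis, log2 units, with bars of 1 standard error) in *T*, *WSD* and *T* + *WSD*, each against the same 6 controls. COL6A6 has -1.78 in *T* + *WSD*, with -0.41 for *T* and -0.76 for *WSD*, and COL25A1 has 1.71, 0.65 and 0.50 in the same order.

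Within the diet, testosterone was compared as *T* + *WSD* against *WSD*. Here 0 of 38 collagens were called, beside 0.815% of all genes, and 8 of 38 had an unadjusted p under 0.05, close to the 19.98% of all genes. DESeq2 called COL9A1 and COL25A1. The smallest p were those of COL9A1 (log2 fold change of 1.20, SE 0.32, adjusted p = 0.0534) and COL25A1 (log2 fold change of 1.21, SE 0.34, adjusted p = 0.0656). Within testosterone, the diet was compared as *T* + *WSD* against *T*, where 2 of 38 were called (5.26%) beside 3.77% of all genes. COL9A1 rose (log2 fold change of 1.30, SE 0.31, adjusted p = 0.021), and it was called whichever library was left out. COL6A6 fell (log2 fold change of -1.37, SE 0.35, adjusted p = 0.0266), and it was called in 20 of 24 such fits. The interaction asks whether testosterone acted differently under the diet than under chow. It called 0 of 38 collagens, beside 0.243% of all genes, with 3 at an unadjusted p under 0.05 beside 13.5% of all genes, and DESeq2 called COL9A1. The 3 smallest p were those of COL9A1 (log2 interaction of 1.62, SE 0.45, adjusted p = 0.127), COL9A2 (-1.24) and COL12A1 (0.77). That COL6A6 or COL25A1 was called in *T* + *WSD* and not in *T* or *WSD* is therefore not shown to be a difference between the treatments' effects, with interaction values of -0.61 and 0.56 and adjusted p of 0.64 and 0.679.

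Chains of one molecule, neighbours on a chromosome or members of one class were followed across the 24 animals as deviations of log2 CPM from their group means. All 9 pairs examined were positively correlated. COL4A1 and COL4A2 had r = 0.977 (rho = 0.925), and r was 0.952 without the 2 animals farthest from the median. COL1A1 and COL1A2, whose genes lie on separate chromosomes, had r = 0.941 (rho = 0.935) and 0.914 without 2 animals. Permutation p, adjusted over the 9 pairs, was 2.25e-05 for both, resting on the smallest p that 100000 resamples can give, 1e-05. COL3A1 and COL5A2, next to each other on one chromosome, had r = 0.944. COL4A5 and COL4A6 had r = 0.861 and COL4A3 and COL4A4 r = 0.823, and the reading of the latter pair is limited because their annotated spans overlap, as do those of COL4A1 and COL4A2. The weakest pairs were COL8A1 and COL8A2 (r = 0.607, adjusted permutation p = 0.0092) and COL15A1 and COL18A1 (r = 0.573, adjusted permutation p = 0.0188). The animals share library depth and cell make-up, whose part in these correlations was not tested.

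Genes that act on collagen were described in the same fit of *T* + *WSD* against *C*. Of 27 genes of collagen biosynthesis and assembly, 3 were called, a share close to the 10% of all tested genes, and the median log2 fold change was -0.05. PCOLCE2, an enhancer of procollagen processing, rose (log2 fold change of 0.70, SE 0.21, adjusted p = 0.0262), and P4HA2, a prolyl hydroxylase subunit (log2 fold change of -0.81, SE 0.24, adjusted p = 0.024), and ADAMTS3, a procollagen protease (log2 fold change of -0.97, SE 0.31, adjusted p = 0.0335), fell. Of 10 collagen receptors tested, 2 were called, both higher, beside 10% of all genes called and 4.72% called higher. They were ADGRG1, a receptor for type III collagen, and ITGA1, the integrin chain that binds type IV collagen, with log2 fold changes of 0.92 and 1.01.

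Basement membrane partners of type IV collagen were described likewise. Of 14 tested, 5 were called, beside 10% of all genes, and the median log2 fold change was 0.66. Among them, the laminin chains LAMB2, LAMA2 and LAMC1 rose with 0.66, 1.02 and 0.82, while LAMB1 fell (log2 fold change of -0.82, SE 0.22, adjusted p = 0.0153). LAMA2 ran from 75.6 to 194.4 CPM in *C* and from 225 to 357 CPM in *T* + *WSD*. The groups did not overlap, with every *T* + *WSD* animal above every control, as for 3.49% of all tested genes. Of 18 fibril-binding matrix genes, 4 were called, 3 higher and 1 lower, beside 4.72% and 5.29% of all genes. MFAP4, DPT and THBS1 rose with 1.55, 0.98 and 1.22. POSTN, a matricellular protein that binds type I collagen, fell with -2.19, running from 226 to 1081 CPM in *C* and 40.7 to 283 CPM in *T* + *WSD*. Among the other marker lists, 1 of 10 fibroblast, 1 of 9 adipocyte, 1 of 9 macrophage and 5 of 11 smooth muscle and pericyte markers were called, beside 10% of all genes. Of the 5, 4 were higher and 1 was lower, and the sum of those 11 markers ran from 1057 to 1977 CPM in *C* and from 1827 to 2577 CPM in *T* + *WSD*. The part of these cell types in the collagen levels, COL4A1 and COL4A2 included, was not tested.

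The number of collagens called depended on the libraries, as did that of all genes. Fitted on the 16 libraries with under 5% on ENSMMUG00000038258, only COL25A1 of the 7 was called, beside 78 of 15448 genes in all, and on the 8 others none was, as for all 13799 genes tested there. The log2 fold changes of the 7 kept their sign in both sets, for instance -1.35 and -2.52 for COL6A6 and 1.77 and 1.65 for COL25A1. The 7 were picked by their calls on all 24 libraries, of which both sets are parts. Equal signs were thus largely given in advance and are no separate support. DESeq2 called 13 collagens, adding COL4A1, COL4A2, COL4A4, COL9A1, COL14A1 and COL26A1 to the 7, beside 10.9% of all genes with an adjusted p. Without *C* replicate 1 alone, only COL25A1 and COL6A6 were called, and the calls over all genes also dropped, from 1522 of 15207 to 900 of 15330.

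Leaving out single animals changed several other calls in *T* + *WSD* against *C*. Calls over all genes also moved, from 1522 of 15207 to 1134 of 15305 without *C* replicate 3 and to 1790 of 15326 without *C* replicate 5. COL7A1 was not called without *C* replicate 1, 3 or 4 or *T* + *WSD* replicate 7 or 12, with an adjusted p of up to 0.0716. COL8A1 was not called without *C* replicate 1 or *T* + *WSD* replicate 7, 8 or 10, with an adjusted p of up to 0.108. COL8A2 was not called without *C* replicate 1 or 5 or *T* + *WSD* replicate 7, 8 or 9, with an adjusted p of up to 0.0708. In the other direction, COL4A1, COL4A2 and COL12A1 were called higher without *C* replicate 5, with log2 fold changes of 1.07, 0.98 and 0.71 and adjusted p of 0.0312, 0.0365 and 0.0355. COL4A4 was called lower without *WSD* replicate 20 or *T* + *WSD* replicate 11 or 12 (adjusted p down to 0.0395), COL14A1 without *C* replicate 6, *T* replicate 14 or *T* + *WSD* replicate 12 (down to 0.0286), and COL9A1 was called higher without *C* replicate 6, *WSD* replicate 23 or *T* + *WSD* replicate 8 or 9 (down to 0.0336). Against *T*, COL6A6 was not called without *T* replicate 17 or *T* + *WSD* replicate 8, 9 or 12, with an adjusted p of up to 0.0598. There COL25A1 was called higher without *C* replicate 1 or 2 or *T* replicate 14 (down to 0.0257), and COL4A5 lower without *T* replicate 14 (adjusted p = 0.0454). Over all genes, calls against *T* were 828 of 15330, 562 of 15350 and 738 of 15349 without these animals in turn, beside 574 of 15207. Against *WSD*, COL9A1 was called higher without *C* replicate 1 or *WSD* replicate 19, 21 or 22 (down to 0.0347), COL25A1 without *C* replicate 2 (adjusted p = 0.0425) and COL11A2 without *WSD* replicate 21 (adjusted p = 0.0373), and COL6A6 was called lower without *WSD* replicate 21 (adjusted p = 0.0472). Over all genes, 124 of 15207 were called against *WSD*. The count was 189 of 15330 without *C* replicate 1, 179 of 15348 without *WSD* replicate 19 and 93 of 15350 without *C* replicate 2.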

How the data were processed

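RNA-seq of 24 omental adipose biopsies was analysed from 1 deposited table of raw counts per gene, with 1 column for each animal. Per the labels and the study's methods, the authors depleted ribosomal RNA, trimmed reads with Trimmomatic 0.36, checked them with FastQC 0.11.5 and aligned them to rheMac8 with STAR 2.5.2b. The counting tool and its strand setting are not given in the sources used here, so reads of overlapping genes cannot be assigned with certainty. Groups came from the labels, and symbols from a gene name table and the supplementary gene lists, which named 17851 of the 32386 rows. The members, classes, related gene lists and marker lists were chosen with earlier results of these data known.

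Counts were normalized with TMM and filtered with filterByExpr (minimum count 10, minimum total count 15) in edgeR 4.0.16 under R 4.3.3, which kept 15207 genes. One quasi-likelihood fit (robust and legacy settings on) held all 24 animals in 4 groups with 20 residual degrees of freedom, and 6 contrasts were tested two-sided, their p adjusted by Benjamini and Hochberg across the 15207 genes. A standard error is the log2 fold change divided by the square root of F. CPM are counts per 1000000 of the TMM-scaled library. Alternatives were DESeq2 1.42.0, other normalizations and filters, subsets of libraries, a mesothelial covariate and leaving out each animal. Correlations used SciPy 1.17.1, log2 CPM with a pseudocount of 0.5 and 100000 permutations within groups.

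Counts were simulated for *T* + *WSD* against *C* over 15207 genes, with 200 genes changed in each of 3 sets. At an adjusted p under 0.05, the test recovered 31.8% of genes changed 1.5-fold, 65.1% at 2-fold, 83.2% at 3-fold and 87.1% at 4-fold. The fold-change threshold used for calls was not applied there, and it could only lower these shares. In the data 1522 genes were called, more than the 200 changed in a simulated set. Genes named in the text are all collagens called in any contrast, a fixed set of abundant chains, the chains of the 9 pairs, the 3 smallest p in the contrasts with few calls, and up to 4 called members of each related list. Others were named after their values were seen. Depth after ENSMMUG00000038258 was between 3125930 and 27945191 counts. Gene order was read from RefSeq, on an assembly other than the authors', so no coordinates, sequences or gene lengths were used here. The values of 1 gene of the related lists are not reported here, although the list counts include it. Bisulfite data were not analysed here.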

Additional observations from a re-analysis of the deposited data

Results flagged for a closer look

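Within each group of 6 animals, 26 named collagens were checked for a single animal lying far from the others, by the gap to its nearest neighbour over the range of the group. Of the 104 sets of animals checked, 12 passed Dixon's 95% critical value for 6 samples, 10 of them at the high end. Chance flags about 1 in 20 sets of normally distributed values. These sets were CPM with no log and shared animals and partner genes, so the 12 cannot be measured against that rate.

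*C* replicate 1, the library with the high mesothelial sum, was the highest control for COL4A5 (122 CPM, next 67.0 CPM), for COL4A6 (21.3 CPM, next 9.61 CPM) and for COL8A1 (133 CPM, next 69.1 CPM). *C* replicate 2 was the highest control for COL25A1, at 8.37 CPM against 3.07 CPM for the next. In *T* + *WSD* replicate 8, COL1A1 was lowest at 375 CPM, with the next animal at 1355 CPM, and COL6A3 was lowest at 646 CPM, with the next at 1066 CPM.

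In *T*, COL6A5 of replicate 18 was highest at 43.9 CPM (next 16.6 CPM), in the *T* library with the highest mesothelial sum. COL4A2 of *T* replicate 14 stood at 1701 CPM (next 1098 CPM), and COL9A2 of *T* replicate 16 at 5.01 CPM (next 2.76 CPM). In *WSD*, COL4A1 of replicate 21 stood at 2928 CPM (next 1847 CPM), and COL9A2 of replicate 20 at 3.79 CPM (next 1.71 CPM). COL20A1 of *T* + *WSD* replicate 10 stood at 2.53 CPM (next 1.08 CPM). The cause of these values was not tested.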

How the results depend on the processing

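Of the 38 collagens tested, the number called in *T* + *WSD* against *C* was 13 with DESeq2 (1894 of all 17391 genes), 1 in the 16 libraries under 5% on ENSMMUG00000038258 (78 of 15448), and 0 in the 8 others (0 of 13799, an alternative chosen after seeing the data) and 0 with the mesothelial covariate (0 of 15207), so that calls over all genes were also few in the last 3. Against *WSD* it was 2 with DESeq2 (431 of 16445), 1 with the legacy setting off (176 of 15207) and 1 with the compared groups fitted alone (46 of 14555). Against *T* it was 6 with those groups alone (1059 of 14565), 0 in the 16 libraries (308 of 15448), 0 in the 8 (0 of 13799) and 0 with the covariate (0 of 15207). DESeq2 called 1 in the interaction (174 of 15971). Leaving out 1 animal gave 2 to 9 collagens against *C*, 0 to 3 against *WSD* and 1 to 4 against *T*, the lowest against *C* being 2 without *C* replicate 1 and 4 without *T* + *WSD* replicate 7. Calls over all genes moved as well, for instance to 900 of 15330 against *C* without *C* replicate 1.

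With the covariate, COL6A5 (0.19) and COL8A1 (0.27) changed sign. Class medians of log2 fold change moved beyond the spread between animals in 28 cases. In *T* + *WSD* against *C*, type IV gave -0.13 with at least 10 counts in every animal, where 4 members were left, and -0.068 with the covariate. Type VIII gave -2.47 in the 8 libraries and 0.056 with the covariate, FACIT 1.04 and the multiplexins 0.88 in the 8, and the transmembrane class 1.06 with at least 10 counts, 1.04 in the groups alone, 1.13 in the 8 and -0.43 with the covariate. In the 8 libraries the multiplexins also gave 0.97 in *WSD* and 1.10 in *T* against *C*, where fibrillar chains gave 0.70 and FACIT 0.37. Against *WSD*, type VIII gave -0.027 with the covariate, and transmembrane chains 0.48 with at least 10 counts, 0.48 in the groups alone and 0.83 in the 8. Against *T*, type VIII gave -2.27 in the 8 and 0.24 with the covariate, and transmembrane chains 0.92 and -0.44. In the interaction, the 8 libraries gave -0.91 for fibrillar, -0.43 for type IV, -1.47 for type VIII, 0.61 for transmembrane and -1.19 for multiplexin chains, and type VIII gave 0.15 with the covariate. The correlation of COL8A1 with COL8A2 was 0.401 without the log scale and 0.370 in the 16 libraries. Apart from fewer members or fewer libraries, the cause was not tested.

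No paired analysis was possible because the animals carry the numbers 1 to 24 with none shared between groups. Low counts limit COL9A1, COL7A1, COL25A1 and COL4A3.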

Other observations

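COL4A3 to COL4A6 together took 0.53% ± 0.45 (SD, n = 6) of collagen counts in *C* and 0.21% ± 0.04 in *T* + *WSD*, and COL6A5 with COL6A6 took 1.65% ± 1.72 and 0.37% ± 0.13. COL8A1 with COL8A2 took 0.57% ± 0.48 and 0.19% ± 0.07. The control means rest in part on *C* replicate 1. Without it they were 0.350% ± 0.126 (SD, n = 5) for COL4A3 to COL4A6, 0.979% ± 0.561 for COL6A5 with COL6A6 and 0.376% ± 0.085 for COL8A1 with COL8A2.

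For the interaction, the 6 type IV chains all had a positive value, between 0.14 and 0.48, and the 5 type VI chains all had a negative one, between -0.61 and -0.14. Over all tested genes the quartiles were -0.22 and 0.24. The smallest unadjusted p was 0.439 among the type IV chains and 0.222 among the type VI chains, so no single chain was distinguishable from 0. Partner chains varied together within groups, for instance COL4A1 with COL4A2 (r = 0.977) and COL6A1 with COL6A2 (r = 0.818). Equal signs within a class are therefore not separate results, and no class was tested.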
